A study of Mus musculus with 6 samples.

Results

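Snorc, Scrg1, C1qtnf3, Cytl1, Il17b, Susd5 and Clec3a encode proteins, most of them small, that chondrocytes secrete or carry on their surface, and they are described here in RNA sequencing of mouse articular cartilage. The 7 genes were picked by name from the 33971 genes of the deposited table, with the difference between the ages already known, so that difference is given for them as a description and without a p-value. The study asked how gene expression in articular cartilage changes with aging. It compared 3 libraries of wild-type cartilage taken at 2 months with 3 taken at 18 months, and the labels name no treatment. The labels do not say whether the libraries came from separate animals or from pools, so the spread between libraries, and each p-value that rests on it, may be technical in part. The label of these genes as restricted to cartilage could not be checked, since the libraries come from a single tissue.

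Chondrocytes are the resident cells of cartilage and fill the space around them with type II collagen, the proteoglycan aggrecan and many smaller proteins. Some of the small ones are soluble signals, such as Il17b, a cytokine of the interleukin 17 family, and Cytl1, named cytokine-like 1. Others bind matrix or sit in the membrane, such as Snorc, a transmembrane proteoglycan of chondrocytes. The transcription factors Sox9, Sox5 and Sox6 drive much of the chondrocyte programme.

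The libraries held between 48171507 and 59085179 counts. A list of 12 chondrocyte markers took a share of 3.71% to 6.33% at 2 months and of 0.0589% to 0.145% at 18 months, where replicate 1 was the highest. A list of 12 neutrophil markers took 0.00131% to 0.373% at 2 months, with 2-month replicate 2 the highest, and 4.17% to 4.48% at 18 months. A list of erythroid markers, of which 8 of 9 were in the table, took 0.0247% to 0.659% at 2 months and 2.69% to 3.56% at 18 months. Osteoblast and osteocyte markers took 0.478% to 0.687% and 0.122% to 0.132%, and each of the lists for skeletal muscle, adipocytes and fibroblasts took at most 0.134% of a library. The methods describe male mice, whereas Xist, the transcript of the inactive X chromosome of females, was counted 88239 to 102417 times at 2 months and 11 to 30 times at 18 months. A difference between the sexes and one between the ages therefore cannot be told apart in these libraries.

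The stretches upstream of Cytl1 and C1qtnf3 are shown because these genes had the highest and the lowest level of the 7 at 2 months. They are the 250 bases before the RefSeq start on the plus strand of GRCm38.p6, at chr5:37735269-37735518 for Cytl1 and chr15:10952082-10952331 for C1qtnf3. Capitals mark a match to the TATA box letters TATAAA.
Cytl1: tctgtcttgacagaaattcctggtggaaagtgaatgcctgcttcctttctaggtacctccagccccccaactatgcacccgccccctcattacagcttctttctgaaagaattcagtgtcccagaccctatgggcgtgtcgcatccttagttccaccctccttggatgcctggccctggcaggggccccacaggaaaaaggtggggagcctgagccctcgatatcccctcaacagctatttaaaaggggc
C1qtnf3: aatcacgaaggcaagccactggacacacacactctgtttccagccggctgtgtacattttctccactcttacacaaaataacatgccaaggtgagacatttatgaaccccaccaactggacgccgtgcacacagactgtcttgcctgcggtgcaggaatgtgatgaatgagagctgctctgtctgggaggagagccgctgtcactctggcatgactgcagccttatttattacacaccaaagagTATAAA
RefSeq promoters matched 3 of the 7 genes, the third being Susd5, whose RefSeq start lies 214 bases inside the GENCODE transcript and whose stretch is not shown. Both strands were searched, and TATAAA was found once, on the plus strand of the C1qtnf3 stretch at 6 to 1 bases before the start. Of 32851 mouse promoters of the same length, 12.4% held it. The SOX core letters, ACAAAG or ACAATG, were in 25.2% of those promoters and the RUNX core letters ACCACA in 14.0%, and neither was in the 3 stretches.

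The 7 genes lie on 6 chromosomes, with Scrg1 and Clec3a both on chromosome 8, and all are on the plus strand. Their coordinates in the table were those of the mouse annotation GENCODE M21 (GRCm38) in 7 of 7 cases. Scrg1 (ENSMUSG00000031610, chromosome 8, 57455923 to 57477585), a small secreted protein found through its response to scrapie infection, has the shortest coding sequence of the 7, at 98 residues over 3 exons. Snorc (ENSMUSG00000026258, chromosome 1, 87470271 to 87475482) codes for 121 residues and Cytl1 (ENSMUSG00000062329, chromosome 5, 37735519 to 37739820) for 139. Il17b (ENSMUSG00000024578, chromosome 18, 61684887 to 61692538) codes for 180 residues. Clec3a (ENSMUSG00000008874, chromosome 8, 114418086 to 114425846), a C-type lectin of cartilage related to tetranectin, codes for 196. C1qtnf3 (ENSMUSG00000058914, chromosome 15, 10952332 to 10980150), a secreted protein with a collagen-like stretch and a C1q domain, has coding transcripts of 319 and 246 residues. Susd5 (ENSMUSG00000086596, chromosome 9, 114057140 to 114098728), a membrane protein with a sushi domain and a Link module, is the longest at 619 residues.

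Cytl1, a secreted protein made by chondrocytes, was among the most abundant transcripts of young cartilage. Levels are given in FPKM, which scales fragments by transcript length and by library total and so allows genes of different length to be compared. Its FPKM was 11334, 3401 and 10715 in 2-month replicates 1, 2 and 3, which put it at rank 2, 3 and 1 of 33971 genes. Its counts alone made up 1.36%, 0.407% and 1.32% of those libraries (exact 95% binomial interval for replicate 1, 1.357% to 1.363%, which covers counting error only). At 18 months its FPKM was 1867, 457 and 446, and its rank 18, 69 and 72. All 18-month libraries were below all 2-month libraries, yet Cytl1 was still among the 100 most abundant genes there. It held 61.0% to 78.3% of the counts of the 7 genes at 2 months and 90.9% to 91.6% at 18 months.

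Clec3a, which is reported to bind plasminogen and its activator, had the next highest level. Its FPKM was 1870, 1318 and 1530 at 2 months and 128, 22.9 and 24.9 at 18 months. The lowest young library was thus far above the highest aged library, and among the aged libraries replicate 1 stood apart from the others.

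Snorc had an FPKM of 841, 556 and 829 at 2 months and 17.9, 2.23 and 2.53 at 18 months. Its rank went from 34 to 51 in the young libraries to 2739, 10661 and 10170 in the aged ones, the widest move in rank among the 5 genes still counted at 18 months. Susd5 behaved alike in rank, from 81 to 132 down to 2772 to 9902. Its FPKM was 376, 214 and 322 at 2 months and 17.7, 2.72 and 3.49 at 18 months. For both genes the groups did not overlap and 18-month replicate 1 was the highest aged library.

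Scrg1 had an FPKM of 416, 265 and 386 at 2 months and 30.6, 26.3 and 23.4 at 18 months. It differed from the other genes in the aged libraries, where its 3 values lay close together and 18-month replicate 1 did not stand apart. In the young libraries its range overlapped that of Susd5, the neighbour in the order of levels.

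Il17b and C1qtnf3 were lower throughout and had no count in any of the 18-month libraries. The counts of Il17b were 2450, 1347 and 2486 at 2 months, an FPKM of 45.8, 23.6 and 45.5. Those of C1qtnf3 were 81, 1833 and 691, an FPKM of 0.571, 12.2 and 4.81. The spread of C1qtnf3 between young libraries was as large as its mean, with a coefficient of variation of 96.4% on CPM, counts scaled to the library size, against 21.9% to 54.8% for the other 6 genes. A count of 0 in libraries of this size allows up to 3 counts per library, so these genes were not detected at this depth.

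In the 3 young libraries the order of levels was the same, with Cytl1 at the top, then Clec3a, Snorc, Scrg1, Susd5, Il17b and C1qtnf3. Of the 6 neighbouring pairs in this order, the ranges of Scrg1 and Susd5 overlapped and those of the other 5 pairs did not. In the aged libraries Cytl1 stayed first, while Clec3a and Scrg1 took the next 2 places in an order that changed between libraries and Snorc and Susd5 followed.

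**Figure D1:**
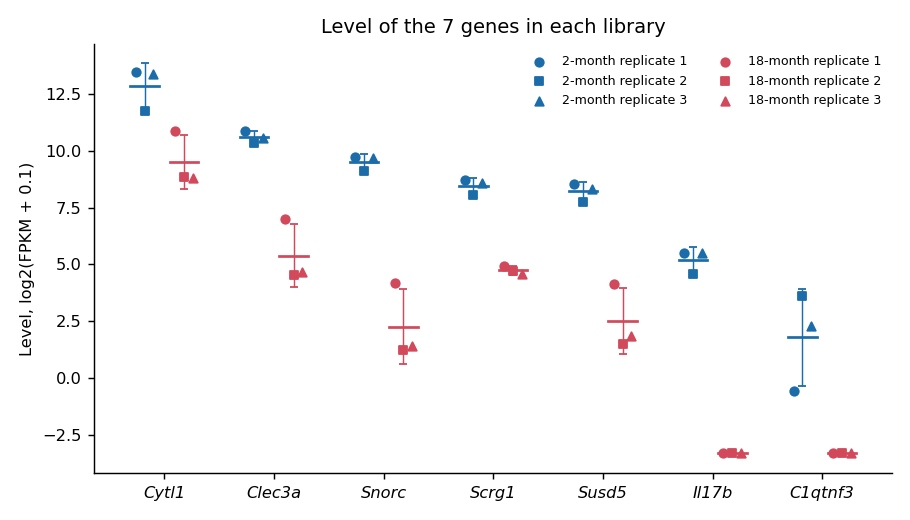
Level of the 7 genes as log2(FPKM + 0.1) in each library, with the 2-month libraries in blue and the 18-month libraries in red; bars are the mean and the error bars the SD over 3 libraries. Each gene is lower in all 3 aged libraries than in all young ones, Cytl1 is the highest in both groups, and Il17b and C1qtnf3 lie at 0 FPKM in the aged libraries. The share of all genes without overlap between the ages was not computed, and nothing is read from the lack of overlap here.

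Each of the 7 genes was lower in aged cartilage after TMM normalization of library sizes, and 7 of 7 were called lower, against a background of 21.3% of the 20397 genes tested. Relative to the chondrocyte markers the direction turned for Cytl1 and Scrg1, while Susd5 and Clec3a stayed near the marker list. A call required an adjusted p-value under 0.05 in edgeR's quasi-likelihood test together with a log2 fold change beyond 1 in either direction. Because the genes were chosen with this contrast known, nothing is read from that count. Il17b and C1qtnf3, with no count at 18 months, also had no other call open. The same holds for the lack of overlap between the groups, whose share over all genes was not computed. The log2 fold change, 18-month against 2-month with its standard error, was -6.73 (1.07) for Snorc, from an FPKM of 742 ± 161 to 7.55 ± 8.96 (SD, n = 3 each). It was -5.37 (0.91) for Susd5, from 304 ± 82.4 to 7.96 ± 8.42, and -4.86 (0.83) for Clec3a, from 1573 ± 279 to 58.5 ± 60.0. The smaller differences were those of Scrg1, at -3.82 (0.26), from 356 ± 80.0 to 26.8 ± 3.60, and Cytl1, at -3.33 (0.85), from 8483 ± 4412 to 923 ± 817. Against a floor of 3 counts in each aged library, Il17b was at least 857.8-fold lower and C1qtnf3 at least 330.1-fold lower. The bound for C1qtnf3 was 161.8-fold without 2-month replicate 2, which held most of its counts. The call of Cytl1 was lost without 2-month replicate 3, 18-month replicate 2 or 18-month replicate 3, with log2 fold changes of -3.11, -3.0 and -2.99. In bulk samples a lower level from fewer chondrocytes and one from less RNA per chondrocyte cannot be told apart.

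Measured against the other chondrocyte transcripts in the same library, the 7 genes divided into those that kept pace and those that did not. The counts of each gene were divided by the summed counts of the 12 chondrocyte markers, among them Col2a1, Acan and Sox9, and expressed per 100000 marker counts. Cytl1 stood at 36708, 6421 and 28569 in the 2-month libraries and at 154485, 93290 and 89405 in the 18-month libraries, where all 3 values were higher. The mean ratio between the ages was 4.70. Scrg1 moved the same way, from 893, 332 and 682 to 1678, 3562 and 3111, a ratio of 4.38. Both were thus less reduced in the 18-month libraries than the marker list was.

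Susd5 and Clec3a stayed near the marker list. The ratio between the ages was 1.09 for Susd5, whose values of 4713, 1566 and 3324 at 2 months overlapped those of 5654, 2147 and 2706 at 18 months. For Clec3a it was 1.6, and the ranges, 1392 to 3390 and 2615 to 5915, overlapped as well. Snorc was lower than the markers with a ratio of 0.411, from 1862, 718 and 1510 to 1014, 314 and 351, and 1 aged library lay within the young range. Il17b and C1qtnf3 were at 0 on this scale too. At their mean young ratio to the markers, 18-month replicate 1 would have held 82.8 counts of Il17b and 26.2 of C1qtnf3. Replicates 2 and 3, with fewer marker counts, would have held 31.4 and 32.4 of Il17b and 9.93 and 10.3 of C1qtnf3. At the lowest young ratio 18-month replicate 1 would have held 35.3 of Il17b and 3.88 of C1qtnf3, so for C1qtnf3 the absence lay close to what the depth could show.

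On the log2 scale, with 0.5 added to each count, the difference relative to the marker list was 2.53 for Cytl1, 2.18 for Scrg1, 0.67 for Clec3a and 0.14 for Susd5. It was -1.39 for Snorc. Among the listed Sox factors and secreted cartilage genes the same ratio was highest for Sox6, at 33.2. Sox6 was lowest in 18-month replicate 1, the aged library with the highest chondrocyte and the lowest erythroid marker share. A source of Sox6 in other cells was not tested. The ratio was 7.95 for Cilp, which encodes a matrix protein of the intermediate layer. At the low end it was 0.0054 for Matn1 and 0 for Epyc, which had no count in the aged libraries. Within the marker list itself it ran from 6.28 for Col11a2 to 0.0054 for Matn1, so the sum is no fixed reference for the number of chondrocytes.

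**Figure D2:**
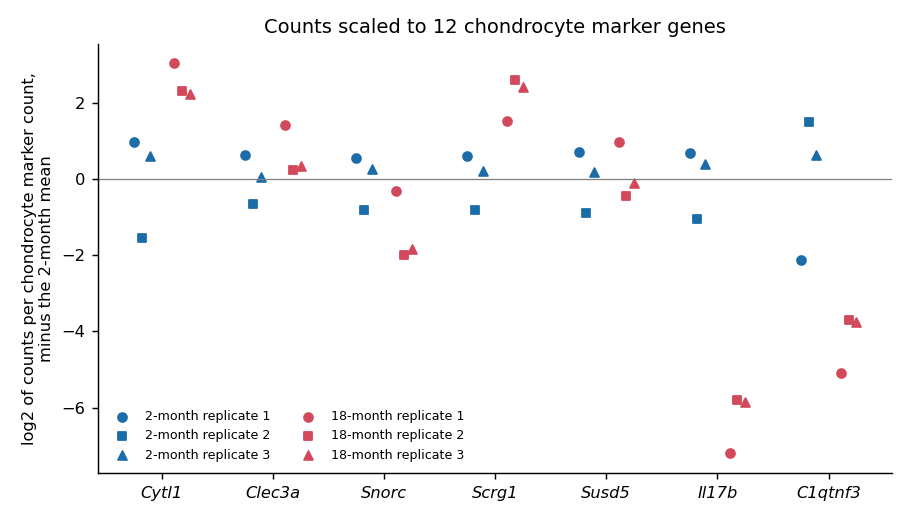
Counts of each gene, with 0.5 added, per count of the 12 chondrocyte markers in the same library, on a log2 axis and set to the mean of the 2-month libraries; 2-month libraries are blue and 18-month libraries red. Cytl1 and Scrg1 lie above 0 in every aged library, Susd5 and Clec3a scatter near 0, Snorc lies below it, and the positions of Il17b and C1qtnf3 at 18 months are set by the added 0.5.

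The young libraries differed among themselves in a way most of the 7 genes shared. In 2-month replicate 2, which also had the highest neutrophil and erythroid marker shares of the young libraries, 6 of the 7 genes had their lowest young level. Its FPKM relative to the mean of replicates 1 and 3 was 0.308 for Cytl1, 0.518 for Il17b, 0.614 for Susd5, 0.661 for Scrg1, 0.666 for Snorc and 0.775 for Clec3a. C1qtnf3 went the other way, at 4.55. Over 15967 genes the median log2 ratio between these libraries was 0.020, with an interquartile range of -0.32 to 0.51. That background was taken on CPM scaled by TMM, not on FPKM. On CPM the ratio was 0.280 for Cytl1, 0.704 for Clec3a and 4.12 for C1qtnf3. The chondrocyte marker share was at the same time highest in that library, at 6.33%, and the part of other cells in the low values was not tested.

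**Figure D3:**
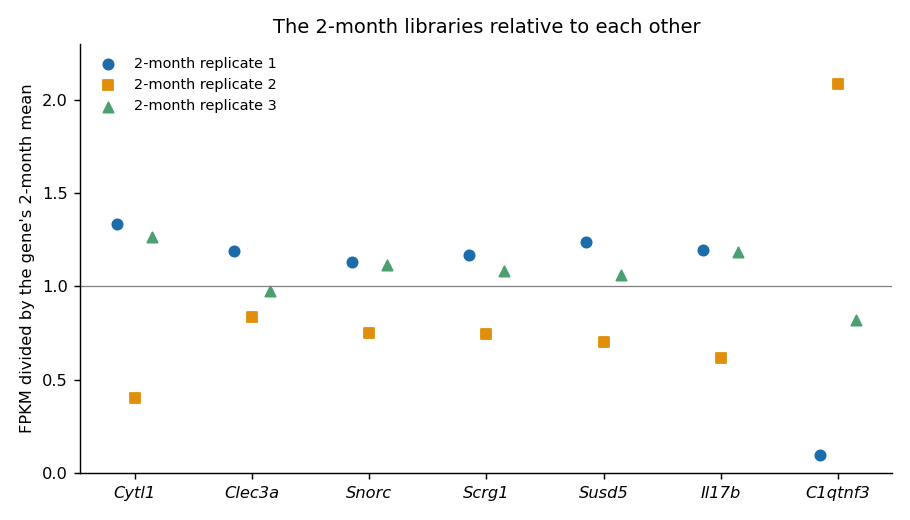
FPKM of each gene in the 3 young libraries divided by the mean of the gene over them, on a linear axis. The points of 2-month replicate 2 are the lowest for 6 genes and the highest for C1qtnf3, while replicates 1 and 3 lie close together except for C1qtnf3.

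Among the aged libraries, 18-month replicate 1 held more of most of these transcripts, as it did of the chondrocyte markers. Its FPKM relative to the mean of replicates 2 and 3 was 7.52 for Snorc, 5.69 for Susd5, 5.35 for Clec3a and 4.14 for Cytl1. For comparison it was 8.66 for Acan, 5.65 for Sox9 and 5.44 for Chad. It was 1.23 for Scrg1, nearer to the 1.65 of Col2a1. Scrg1 thus did not follow the chondrocyte markers that varied between the aged libraries.

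The genes whose profile over the 6 libraries was nearest to each of the 7 were found by the distance between centred log2 profiles, among 15967 genes with a mean CPM of at least 1. They are given as a description. Nearest to Clec3a were Prelp, a leucine-rich matrix proteoglycan (distance 0.281), Crispld1 and Prkcz. Nearest to Susd5 were Fzd2, a Wnt receptor (0.287), Rflna and Sox9 (0.508). Nearest to Cytl1 was Prg4 (0.444), which encodes lubricin, the lubricant of the joint surface, followed by Mn1 and Gm14206. The FPKM of Prg4 was 6097, 2575 and 6475 at 2 months and 1389, 272 and 266 at 18 months, the same order of libraries as Cytl1 but for 2-month replicates 1 and 3.

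Nearest to Scrg1 were Scube3 (0.183), Tmem8b and 9330162012Rik. Nearest to Snorc were Peg3 (0.559), Myoc (0.589) and Frzb (0.715), an inhibitor of Wnt signalling made in cartilage. Nearest to Il17b were Zim1 (0.834), Slc38a4 (1.11) and Pax1 (1.13), a transcription factor of the embryonic vertebral column. Peg3, Zim1 and Slc38a4 are known as imprinted genes. Their FPKM was 50.2 to 67.2 for Peg3, 9.0 to 12.3 for Zim1 and 40.8 to 75.8 for Slc38a4 at 2 months, and at most 1.54, 0.0303 and 0.140 at 18 months. C1qtnf3 had no close neighbour, the nearest being Syt8 (1.76), R3hdml (1.79) and Rspo4 (2.14). Among the 7 genes themselves the closest pair was Susd5 and Clec3a (0.727), then Scrg1 and Cytl1 (1.74) and Snorc and Susd5 (1.85). C1qtnf3 was at least 4.27 from each of the others. C1qtnf3 and Il17b had no count at 18 months, so that part of their profiles was set by the 0.1 added to CPM. Their distances and nearest genes rest in part on it.

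The relatives of the 7 genes, listed by family membership, did not share one direction. Of 33 relatives listed by family, 32 were in the table and 28 were tested, of which 11 were lower (background 21.3%), 5 higher (background 14.9%) and 12 not called. Their median log2 fold change was -0.67, against -0.021 for all genes tested. Clec3b, Susd4 and Hapln3, among the 11 lower, needed the 2-month libraries to pass the expression filter, so nothing is read from their calls. Which relatives were called higher depended on single libraries, with 9 called without 2-month replicate 2 and 3 without 2-month replicate 3, 18-month replicate 1 or 18-month replicate 3. The neutrophil marker share was higher in each aged library than in each young one, and its part in these differences was not tested.

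Il17d, a secreted relative of Il17b, was lower in the 18-month libraries. Its FPKM was 16.6, 12.4 and 22.6 at 2 months and 0.353, 0.320 and 0.353 at 18 months (log2 fold change -5.71, standard error 0.33, adjusted p = 0.000749). Unlike Il17b it was still counted in every aged library. Clec3b, which encodes tetranectin and is the relative of Clec3a, fell and had a log2 fold change of -3.99 (standard error 0.78, adjusted p = 0.00883), from an FPKM of 3.31 ± 1.23 to 0.213 ± 0.207 (SD, n = 3 each). With 30, 4 and 9 counts at 18 months, it needed the 2-month libraries to pass the expression filter. Nothing is read from its call or p-value.

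Of 9 tested relatives of C1qtnf3, 4 fell (background 21.3%) and 1 rose (background 14.9%). C1qtnf1 fell by 1.76 (standard error 0.18, adjusted p = 0.00162) and C1qtnf6 fell by 1.73 (standard error 0.49, adjusted p = 0.0295). The call of C1qtnf6 was lost without 2-month replicate 3 or any 1 of the 18-month libraries, and its log2 fold change was -1.04 without 2-month replicate 2. In C1qtnf6 the level of 2-month replicate 2 was 37.8 FPKM against 9.11 and 15.6 in the other young libraries, the same library in which C1qtnf3 was highest. C1qtnf12 rose by 2.18 (standard error 0.25, adjusted p = 0.00192), from an FPKM of 6.18, 11.4 and 5.89 to 36, 37.4 and 37.2. Adipoq, the adipocyte hormone adiponectin, had a log2 fold change of 2.19 that was not called (adjusted p = 0.286). Its FPKM was 8.99 in 2-month replicate 2 and at most 0.196 in the other young libraries, and without that library its log2 fold change was 6.57 (adjusted p = 0.000173). Adipoq needed the 18-month libraries to pass the expression filter, so nothing is read from its p-values.

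Susd5 has relatives through each of its domains. Of 5 sushi domain genes, Susd4 fell (background 21.3%), Susd2 and Susd3 rose (background 14.9%), and Susd1 and Susd6 were not called. Both rises were lost without 2-month replicate 3, and that of Susd2 also without 2-month replicate 1 or any 1 of the 18-month libraries. Susd1 had an FPKM of 0, 2.96 and 0.149 at 2 months and 12.8, 13.3 and 12.7 at 18 months (log2 fold change 3.64, adjusted p = 0.131). Without 2-month replicate 2 its log2 fold change was 7.31 (adjusted p = 0.00141). Susd1 needed the 18-month libraries to pass the expression filter, so nothing is read from its p-values. Susd6, with the highest mean level of these 5, had an FPKM of 8.48 ± 0.875 at 2 months and 11.3 ± 0.914 at 18 months (log2 fold change 0.34, adjusted p = 0.0318, under the fold limit). Of 11 tested Link module genes, whose module binds hyaluronan, 4 fell (background 21.3%) and 2 rose (background 14.9%). Acan, which encodes aggrecan, fell by 5.91 (standard error 1.13, adjusted p = 0.00804) and Hapln1, which links aggrecan to hyaluronan, fell by 5.95 (standard error 0.79, adjusted p = 0.00278). Hapln3 and Bcan fell as well, but the call of Bcan was lost without 2-month replicate 1 or 3 or 18-month replicate 2 or 3. Cd44, the hyaluronan receptor of many cells including leukocytes, rose by 2.12 (standard error 0.61, adjusted p = 0.0316), from an FPKM of 3.13, 18.7 and 6.48 to 46.2, 40.3 and 39.2. This call was lost without 2-month replicate 3 or any 1 of the 18-month libraries. Stab2, a hyaluronan receptor of sinusoidal endothelium, rose by 2.23 (adjusted p = 0.0126).

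Receptors and reported binding partners were called in both directions. Of 9 listed, 8 were tested, with 2 lower (background 21.3%), 2 higher (background 14.9%) and a median log2 fold change of -0.41. Bst1, among the 2 higher, needed the 18-month libraries to pass the expression filter, so nothing is read from its call. Il17rb, the receptor for Il17b, had an FPKM of 1.49, 1.06 and 1.39 at 2 months and 2.13, 1.10 and 1.22 at 18 months. The groups overlapped, and the log2 fold change of 0.08 was small beside its standard error of 0.33 (adjusted p = 0.855). Il17ra, the shared receptor subunit of the family and widely expressed in blood cells, rose by 2.50 (standard error 0.42, adjusted p = 0.00562), from an FPKM of 1.99, 6.02 and 2.25 to 21.7, 18.8 and 19.5. Il17rc fell by 2.02 (standard error 0.28, adjusted p = 0.00307), from 4.23 ± 0.285 to 1.10 ± 0.370 FPKM (SD, n = 3 each).

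Bst1, a surface enzyme of marrow cells reported to bind Scrg1, rose by 4.25 (standard error 1.28, adjusted p = 0.0363), with 2.06 FPKM in 2-month replicate 2, 0.041 and 0.232 in the other young libraries and 13.1 to 17.2 in the aged ones. Leaving out 2-month replicate 3, or any 1 of the 18-month libraries, ended this call. With 8 counts in 2-month replicate 1, Bst1 passed the expression filter only with the 18-month libraries. Neither its call nor its p-value is read as a result. Ccr2, a chemokine receptor of monocytes reported to bind Cytl1, had a log2 fold change of 4.0 that was not called (adjusted p = 0.0621), with 6.46 FPKM in 2-month replicate 2 and 34.3 to 41.5 in the aged libraries. Without 2-month replicate 2 it was 7.25 (adjusted p = 6.09e-05). Plat, the tissue plasminogen activator reported to bind Clec3a, fell by 1.52 (standard error 0.35, adjusted p = 0.0150). Without 18-month replicate 2 or 3 that call was lost.

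Most other secreted cartilage genes were lower in aged cartilage too. Of 12 tested, 11 fell (background 21.3%), with a median log2 fold change of -6.34, also when Epyc, with no count in the aged libraries, was set at its bound. This list was drawn up with earlier results of these data known. Epyc and Matn3, among the 11, passed the expression filter through the 2-month libraries alone, and Matn1 and Cnmd needed those libraries to pass. Nothing is read from the calls of these genes. Chad, a leucine-rich matrix protein that binds chondrocytes, fell by 6.28 (standard error 0.92, adjusted p = 0.00368) and Frzb fell by 6.72 (standard error 0.94, adjusted p = 0.00327). Cilp had a log2 fold change of -2.42 that was not called (adjusted p = 0.0854), with an FPKM of 683, 220 and 730 at 2 months and 262, 35.1 and 37.4 at 18 months. Like Cytl1, Cilp was lowest among the young libraries in replicate 2, and its groups overlapped through 18-month replicate 1.

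All 3 Sox factors fell, against the background of 21.3%, but in each of the 7 alternatives with all libraries only Sox9 and Sox5 were called. The FPKM of Sox9 was 52.5, 40.6 and 53.1 at 2 months and 3.25, 0.588 and 0.565 at 18 months (log2 fold change -5.16, standard error 0.85, adjusted p = 0.00511). Sox5 fell by 4.05 (standard error 0.78, adjusted p = 0.00821). Sox6 fell by 1.0 (standard error 0.16, adjusted p = 0.00461), at the fold limit, and in those alternatives its log2 fold change lay under it, between -0.99 and -0.77. Its FPKM was 8.21, 6.58 and 7.63 at 2 months and 3.60, 3.99 and 4.27 at 18 months, and 18-month replicate 1 was the lowest aged library, unlike for Sox9 and Sox5. The part of cells other than chondrocytes in the level of Sox6 was not tested.

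**Figure D4:**
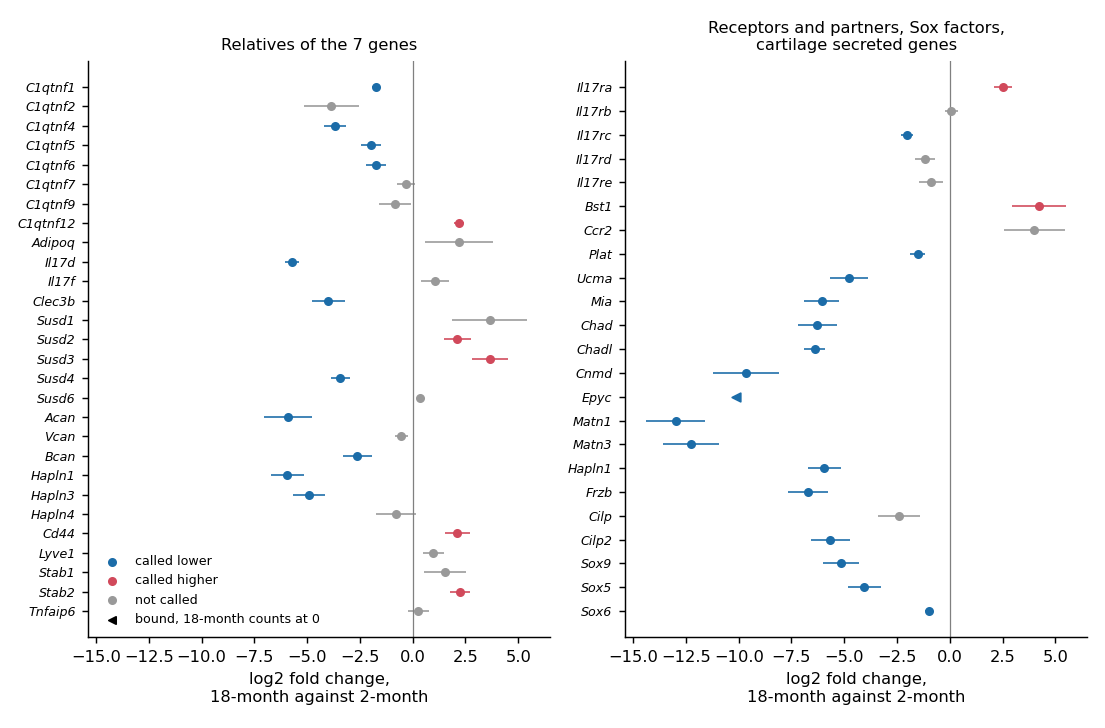
Fold change of the relatives of the 7 genes (left) and of receptors and partners, other secreted cartilage genes and Sox factors (right), as log2 of 18-month against 2-month; points are estimates with standard errors over 3 libraries per age, blue for genes called lower, red for higher and grey for not called, and the triangle is a bound. Secreted cartilage genes lie well below 0, with a median of -6.34, while relatives and partners fall on both sides of it.

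The nearest tested gene on each side of each of the 7 was looked at next. Of 14 such neighbours, 9 were called lower (background 21.3%), with a median log2 fold change of -2.53. The count fell to 4 with limma on log2(FPKM + 1), a scale that understates the change of low genes, and to 6 with the replicate number as a block. Vat1l and Gm38165, among the 9, passed the expression filter through the 2-month libraries alone. Only a lower call was open to them, so nothing is read from their calls or p-values. 5033428I22Rik, with 93, 53 and 9 counts at 18 months, also needed the 2-month libraries to pass. Its call and p-value are likewise not read as a result. Ngef, a guanine nucleotide exchange factor whose end lies 1352 bases from Snorc on the opposite strand, had an FPKM of 21.6, 13.2 and 21.5 at 2 months and 3.41, 0.487 and 0.564 at 18 months (log2 fold change -3.77, adjusted p = 0.0156). Its order of libraries resembled that of Snorc, with 2-month replicate 2 the lowest young library and 18-month replicate 1 the highest aged one.

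Cytl1 lies between Stk32b, a kinase gene 18348 bases away, and Msx1, a homeobox gene 80665 bases away. Stk32b fell by 3.46 (standard error 0.85, adjusted p = 0.0185) and Msx1 fell by 2.54 (standard error 0.40, adjusted p = 0.00450). The FPKM of Stk32b was 24.3, 9.43 and 22.3 at 2 months, so it too was lowest in 2-month replicate 2, and 4.0, 0.641 and 0.907 at 18 months. Without 2-month replicate 3 or 18-month replicate 3 it was not called.

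Amacr, an enzyme of branched fatty acid oxidation 1606 bases from C1qtnf3, fell by 1.67 (adjusted p = 0.00562), and 4930556M19Rik, on its other side, fell by 1.29 (adjusted p = 0.00933). Amacr was near level in the young libraries, at 2.84, 2.47 and 2.66 FPKM, and so did not share the spread of C1qtnf3. Gm38165 overlaps Il17b on the opposite strand, with 43, 27 and 42 counts at 2 months and 0 at 18 months, at least 15.2-fold lower (adjusted p = 0.00452, or 0.0601 with the replicate block). The libraries were strand-specific but the strand setting of the counting is not given in the sources used here, so reads of this gene and of Il17b cannot be told apart with certainty. Carmn, also beside Il17b, fell by 2.52 (adjusted p = 0.0455), and the call was lost without any 1 of the 6 libraries but 2-month replicate 2. Vat1l, beside Clec3a, fell by 4.69 from an FPKM of at most 0.317 (adjusted p = 0.00958), with 8, 0 and 4 counts at 18 months. As for Gm38165, no other call was open to it. 5033428I22Rik, beside Scrg1, fell by 3.03 (adjusted p = 0.0239). The call of 5033428I22Rik was lost without 2-month replicate 1, 2-month replicate 3 or 18-month replicate 2, and with the replicate block. Sap30, 5122 bases from Scrg1 on its other side, had a log2 fold change of 0.88 (adjusted p = 0.00554), under the fold limit and opposite in direction to Scrg1.

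**Figure D5:**
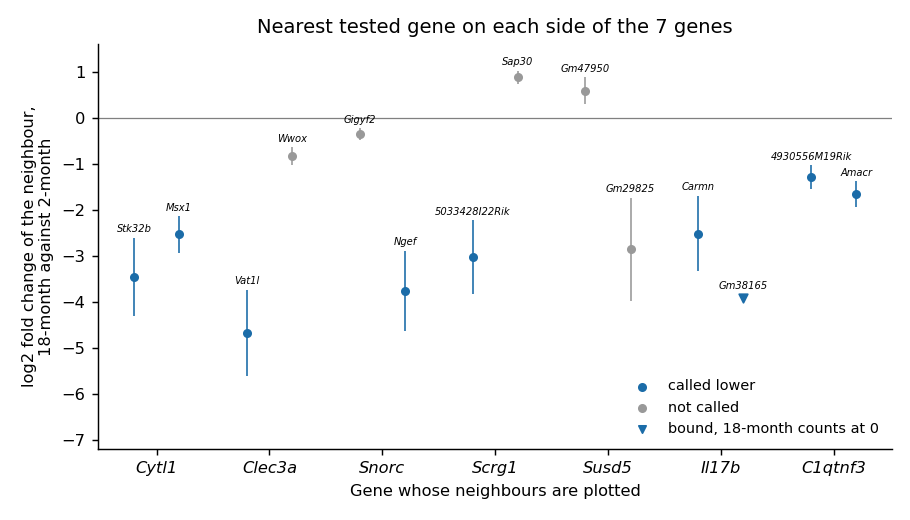
Fold change of the nearest tested gene on each side of each of the 7 genes, as log2 of 18-month against 2-month; points are estimates with standard errors over 3 libraries per age, blue for genes called lower and grey for not called, and the triangle for Gm38165 is a bound. Of the 14 neighbours, 9 were called lower, both neighbours of Cytl1 and of C1qtnf3 among them, and neither neighbour of Susd5 was called. For Vat1l and Gm38165, which passed the filter through the 2-month libraries alone, no other call was open.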

How the data were processed

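Polyadenylated RNA of 6 libraries was sequenced from both ends as strand-specific libraries with molecular identifiers in the adapters, per the labels. The submitters' processing notes name cutadapt 1.9, HISAT2 2.0.4, UMI-tools and StringTie 1.3.4d, with DESeq2 and edgeR, without a role or order. The annotation and the counting settings are not given in the sources used here. For each gene the authors deposited raw whole-number counts of every library. The authors also deposited FPKM values, which are scaled for transcript length and library total. Reads of near-identical gene copies could have been divided in the counting. All per-library columns were used.

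The counts went into edgeR 4.0.16 under R 4.3.3 (TMM, filterByExpr, quasi-likelihood test, no replicate block), adjusted by Benjamini-Hochberg over 20397 genes. A gene could pass filterByExpr through a single age, and then only a call in that direction was open, as for Epyc and Susd4. Standard errors were obtained as the ratio of the log2 fold change to the root of F. With 3 libraries against 3, libraries of one age differed by 6.32 to 48.7 times the chi-square of counting noise (median per gene), so all were kept as samples. The test was checked on simulated counts. Alternatives used DESeq2 1.42.0, limma 3.58.1, other scalings and filters, a replicate block, and leaving out each library. Named were the 7 genes, the 4 of highest mean FPKM in each list with the highest of each family, each called neighbour, and the 3 nearest profiles per gene. Further genes of the lists, such as Il17rb, Plat, Adipoq, Susd1 and C1qtnf6, and the neighbour Sap30, were chosen after their values were seen. The genes and lists were chosen with earlier results of these data known. Il17a, Ahsp and Lep were not analysed here. Data were handled and plotted with the package data.table, version 1.17.8, Python 3.11.15, pandas 2.3.3 and matplotlib 3.10.9. Motifs were searched in RefSeq promoters.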

Additional observations from a re-analysis of the deposited data

How the results depend on the processing

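All 7 genes were called lower with DESeq2, median-of-ratios size factors, total counts alone, no filter, both limma fits and the replicate block, and 6 to 7 with 1 library left out. Nothing is read from these counts, since the genes were chosen with the contrast known. For Il17b and C1qtnf3, absent at 18 months, only a lower call was open. Scaled to the chondrocyte markers, the sign turned for Scrg1 (2.18), Cytl1 (2.53), Susd5 (0.14) and Clec3a (0.67), though the ages overlapped for Susd5 and Clec3a. Scaled to Acan alone, which was chosen after seeing the data, the sign turned for the same 4 (2.86, 3.21, 0.83 and 1.35). These are by construction changes relative to markers that fell, on log2 scale and without a test. With limma on log2(FPKM + 1), 1 partner, 4 neighbours and 2217 of all genes were called lower, against 2, 9 and 4354. Partners called higher went from 2 to 1 without the filter and with the replicate block, which called 6032 genes in place of 7401. Replicate numbers gave no clear pairing of the libraries, with weak correlations of same-numbered deviations (0.0913, 0.0845 and -0.0737). 2-month replicates 1 and 2 each correlated best with the 18-month library of the same number, and 2-month replicate 3 with 18-month replicate 1. With 1 library left out, relatives called higher ranged from 3 to 9, relatives called lower from 8 to 12, partners higher from 1 to 3 and lower from 1 to 2, neighbours lower from 6 to 9, Sox factors from 2 to 3, and all genes higher from 2095 to 5007. Hapln4 (-1.29 to 0.996) and Il17rb (-0.24 to 0.25) changed sign without 2-month replicate 2, and Tnfaip6 (-0.29 to 0.66) and Il17rb without 18-month replicate 1, where the cause was not tested. Of all calls 41.2% were higher, but 50.6% and 57.8% with limma at pseudocounts of 0.1 and 1, and 52.2% without 2-month replicate 2. With 3 libraries per age, single libraries decide calls near the threshold, and the low counts of C1qtnf3 limit what its absence at 18 months shows.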
